A study of Homo sapiens and Homo sapiens
Mus musculus and Mus musculus with 9 samples.

Results

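The epithelial-mesenchymal transition (EMT) genes described here were 10 genes chosen by name, 10 of 41713 genes in the deposited table: ZEB1, ZEB2, SNAI1, SNAI2, TWIST1, PRRX1, VIM, ESRP1, GRHL2 and OVOL1. They were selected on measured values, because ZEB2 and PRRX1 had shown the steepest rises of the group in the co-culture, so the values below are descriptions and no test between groups was made on them. All 10 had a mean count in each of 3 pipelines that separate human from mouse reads. The study cultured C4-2B, a human prostate cancer cell line, alone (3 libraries) or mixed with MC3T3-E1, a mouse pre-osteoblast line, at 1 human cell to 30 mouse cells (3 libraries), and 3 libraries of MC3T3-E1 alone were not analysed here. All cells were labelled wild type and were kept in alpha-MEM with serum, and the co-culture libraries were made from the mixed RNA of both species. The comparison asks how osteoblast contact changes the cancer cells, and for genes of mesenchymal cells it depends on how well reads of the mouse cells were removed.

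In epithelial cells, the zinc finger repressors of the ZEB and SNAI families and the basic helix-loop-helix factor TWIST1 switch off genes of cell junctions, and the homeobox factor PRRX1 marks mesenchymal cells, including those of the osteoblast lineage. GRHL2 and OVOL1 are transcription factors that keep the epithelial state, and ESRP1 is a splicing factor that produces epithelial isoforms. VIM encodes vimentin, the intermediate filament protein of mesenchymal cells. Many of these regulators are conserved between mouse and human, so a read of 50 bases can be identical in both species.

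The sequences of ZEB2 and PRRX1 show how far this goes, and those of SNAI1 and VIM are set beside them as members whose coding sequence was less alike. Each line gives the longest stretch of 1 human coding exon that was identical to a transcript of the mouse gene (capitals). Up to 12 human bases on each side, inside the coding part of the exon, are in lower case. Positions are GRCh38, transcripts are those of GENCODE release 44, and the mouse transcripts are those of release M21.
PRRX1, exon 1, chr1:170664219-170664361, plus strand: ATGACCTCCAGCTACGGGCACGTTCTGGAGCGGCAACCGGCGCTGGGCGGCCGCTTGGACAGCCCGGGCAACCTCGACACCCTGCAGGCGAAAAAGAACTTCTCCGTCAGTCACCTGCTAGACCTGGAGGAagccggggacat
ZEB2, exon 9, chr2:144396412-144396505, minus strand: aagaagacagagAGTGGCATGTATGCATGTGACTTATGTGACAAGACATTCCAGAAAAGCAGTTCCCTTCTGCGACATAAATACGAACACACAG
SNAI1, exon 2, chr20:49983824-49983878, plus strand: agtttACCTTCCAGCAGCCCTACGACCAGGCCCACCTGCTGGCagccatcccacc
VIM, exon 2, chr10:17229654-17229715, plus strand: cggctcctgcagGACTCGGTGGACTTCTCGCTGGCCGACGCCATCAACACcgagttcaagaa
The identical stretch was 131 bases in PRRX1, 82 bases in ZEB2 and 38 bases, shorter than a read, in both SNAI1 and VIM. That of PRRX1 begins at the start codon because only coding bases were searched. In its 5′ untranslated region, 61 of 88 bases lay in shared runs, so the identity may extend upstream. The stretch of ZEB2 stops at the end of the coding part of exon 9, where the search ended, so it may also be longer in the transcript. The longest stretches of the remaining members were 90 bases in ESRP1, 83 in GRHL2, 62 in ZEB1, 56 in SNAI2, 53 in TWIST1 and 41 in OVOL1.

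Over whole genes, shared sequence was counted as the percent of the distinct 31-base words of a gene's human transcripts that occur in any mouse transcript. The median protein-coding gene shared 0.502% (19874 genes). ZEB2 shared 10.2%, more than 98.7% of these genes. TWIST1 shared 8.09%, ESRP1 6.10%, ZEB1 5.87%, PRRX1 5.51% and GRHL2 4.64%, each above 93% of the genes. VIM shared 1.54%, SNAI2 1.04%, OVOL1 0.929% and SNAI1 0.478%. With words of 50 bases, the length of a read, ZEB2 shared 6.87%, ZEB1 3.01% and PRRX1 2.91%, while OVOL1 and SNAI1 shared none. High sharing was therefore found among the mesenchymal factors ZEB2, TWIST1, ZEB1 and PRRX1 and among the epithelial regulators ESRP1 and GRHL2.

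Within the canonical transcript of each gene, the shared words lay in different places. In PRRX1, 49.0% of coding bases lay in 31-base runs identical to the mouse gene, against 4.45% of the bases of the 3′ untranslated region. ZEB2 was alike in both, with 40.9% of coding bases and 31.8% of 3′ untranslated bases, and TWIST1 was close to it with 39.3% and 30.5%. SNAI1 had 4.80% of coding bases and none of the 3′ untranslated region in such runs.

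**Figure D1:**
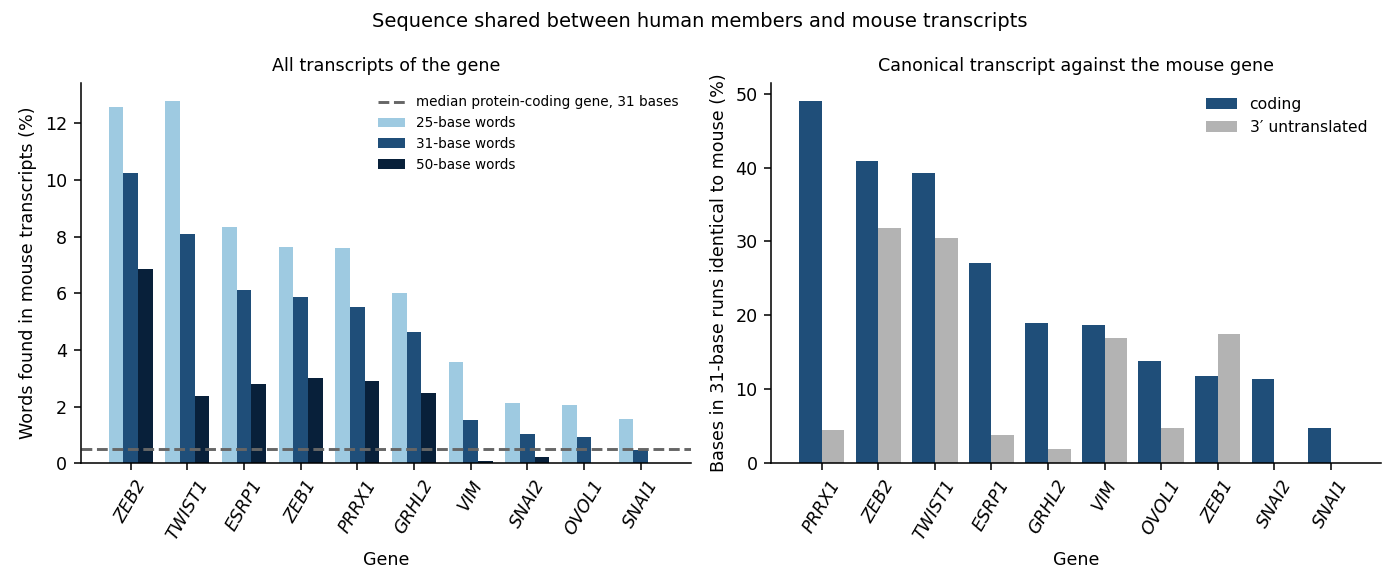
Left, percent of the distinct 25-, 31- and 50-base words of each human member found in mouse transcripts, with the median protein-coding gene as a dashed line. Right, percent of coding and 3′ untranslated bases of the canonical transcript in 31-base runs identical to the mouse gene. ZEB2 was highest on the left for 31 bases (10.2%) and PRRX1 highest on the right (49.0% of coding bases).

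The deposited table gave a mean normalised count over the 6 libraries of C4-2B alone and of the co-culture, and no value of a single library. Each mean is a sum of whole reads divided by 6 size factors, and the reads of each library could be solved from the digits of the mean for 8 of 10 members. The solved libraries carry no label. They were numbered 1 to 6 by falling size factor, no library was assigned to C4-2B alone or to the co-culture, and values are therefore given library by library. With Xenome the size factors were 5.93, 5.31 and 4.86 for libraries 1 to 3 and 0.427, 0.145 and 0.109 for libraries 4 to 6. This corresponds to about 251 M, 225 M and 206 M human reads and to about 18.1 M, 6.14 M and 4.61 M. The co-culture was mixed at 1 human cell to 30 mouse cells, so its libraries can hold few human reads. Libraries 4 to 6 had the fewest, which makes them the likely place of the co-culture. The total reads of each library were not available, and this placing was not tested. A single read thus added 0.0281 to a mean count in library 1 and 1.53 in library 6. Whether 2 reads can be the mates of 1 fragment is not known. Of the 679 genes with reads in library 1 alone, 70.4% had an even number of reads. No gene has 1 read in all, so such genes start at 2 reads, and this share cannot decide the question. The same share was 74.1% in library 2, 69.4% in library 3 and 84.4% of 32 genes in library 4. It was 41.7% of 12 genes in library 5 and 50% of 8 in library 6. ESRP1 and GRHL2 were too abundant to be solved.

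As a check of the labelled cells, the C4-2B markers were abundant, with Xenome mean counts of 51038 for KLK3 (prostate-specific antigen), 46842 for STEAP2 and 37664 for FOLH1 (prostate-specific membrane antigen), and the 11 of 12 markers in the table had a median of 13510. Of the 26 osteoblast and mesenchymal markers, 24 could be solved. Their summed normalised count ran from 1017 to 1051 in libraries 1 to 3 and from 914 to 1378 in libraries 4 to 6. The median of these 24 genes had 51.7% of its summed normalised count in libraries 4 to 6. With Xenome, ALPL, DMP1, LUM, PDGFRA and SP7 had no reads in libraries 4 to 6, and POSTN had none in libraries 1 to 3. These 5 zeros show no absence, since a count of 0 allows a normalised count of up to 7.03, 20.7 and 27.6 in libraries 4 to 6, and with XenofilteR SP7 had 1 read in library 4. COL1A1, the main collagen of osteoblasts, was too abundant to be solved, with a mean of 3384 in Xenome and 4557 in XenofilteR, and RUNX2, the osteoblast master regulator, had means of 411 and 399.7. The part of mouse reads in the values of any member was not tested.

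ZEB2, on chromosome 2 (144364364 to 144521057), had reads in libraries 4 to 6 alone. Xenome kept 0, 0 and 0 reads in libraries 1 to 3 and 33, 53 and 38 reads in libraries 4 to 6. XenofilteR also kept no read in libraries 1 to 3 and kept 16, 18 and 16 reads in libraries 4 to 6. A count of 0 allows up to 3 reads, a normalised count of 0.506 to 0.617 in libraries 1 to 3, and more if both mates of a pair were counted as reads. Libraries 4 to 6 stood at 77.4, 366 and 349.0 with Xenome. No library of the first 3 overlapped with any of the last 3, and library 1 was 13.9 times as deep in human reads as library 4. Because ZEB2 and PRRX1 were selected for their rises, such a separation is no finding for either gene. The share of all genes without such overlap was not counted. In bulk RNA, the number of cells of a type and the RNA per cell cannot be told apart. The XenofilteR reads were the single solution of that mean. The Xenome mean of ZEB2 had 20 solutions in whole reads, of which 1 has no reads in libraries 1 to 3, and this one was taken because of the XenofilteR solution. The other 19 solutions hold 409 to 3479 reads in libraries 1 to 3.

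PRRX1, on chromosome 1 (170662728 to 170739421), likewise had nearly all of its reads in libraries 4 to 6. Xenome kept 1, 1 and 0 reads in libraries 1 to 3 and 36, 24 and 24 reads in libraries 4 to 6. The normalised counts were 0.169, 0.188 and 0 against 84.4, 166 and 220.4. XenofilteR kept the same reads in libraries 1 to 3 and 43, 29 and 29 in libraries 4 to 6.

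TWIST1 had few reads in every library, and ZEB1 had few in libraries 4 to 6. TWIST1, on chromosome 7 (19020991 to 19117636), had 2, 1 and 2 reads in libraries 1 to 3 and 2, 1 and 0 reads in libraries 4 to 6 with Xenome. Its normalised counts were 0.337, 0.188 and 0.411 and then 4.69, 6.91 and 0, so the higher values rested on 3 reads, and the 0 of library 6 allows up to 27.6. XenofilteR differed by 1 read, 2 in place of 1 in library 5. ZEB1, on chromosome 10 (31318495 to 31529814), had 30, 13 and 30 reads in libraries 1 to 3 and 1, 1 and 0 in libraries 4 to 6 with Xenome. The normalised counts of ZEB1 were 5.06, 2.45 and 6.17 and then 2.34, 6.91 and 0, with no order between the libraries. In libraries 4 to 6 a count of 0 allows a normalised count of up to 7.03, 20.7 and 27.6, above each value of both genes there. No difference between libraries was tested for either gene, and the depth of libraries 4 to 6 cannot settle one.

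SNAI1, the repressor of CDH1, lies on chromosome 20 (49982980 to 49988886). Xenome kept 782, 613 and 546 reads in libraries 1 to 3 and 47, 12 and 13 in libraries 4 to 6. The normalised counts were 132, 115 and 112 and then 110.2, 82.9 and 119, so that the libraries overlapped.

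SNAI2, the paralogue of SNAI1, lies on chromosome 8 (48917598 to 48921740) and had 2273, 2472 and 2805 reads in libraries 1 to 3 and 129, 49 and 45 in libraries 4 to 6. Its normalised counts were 384, 465 and 577 and then 302, 338 and 413, with overlap. VIM, on chromosome 10 (17228241 to 17237593), had 1409, 1566 and 1383 reads and then 92, 37 and 32. The normalised counts of VIM were 238, 295 and 285 and then 216, 256 and 294, and all 6 lay within a narrow range. OVOL1, the only epithelial member that could be solved, lies on chromosome 11 (65787063 to 65797214) and had 1846, 1977 and 1608 reads and then 177, 38 and 40. The normalised counts of OVOL1 were 311, 372 and 331 and then 415, 262 and 367, again with overlap. The reads of these 4 genes rest on taking the nearest pair of the Xenome and XenofilteR solutions. SNAI1 had 4 and 9 solutions, VIM 643 and 814, OVOL1 2723 and 2821, and SNAI2 7328 and 8395. On simulated reads with a mean from 200 to 300, the range of VIM, 39 of 40 means found a pair and all 39 were right. From 300 to 430, the range of OVOL1 and SNAI2, 27 of 40 found a pair and 26 of these were right.

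**Figure D2:**
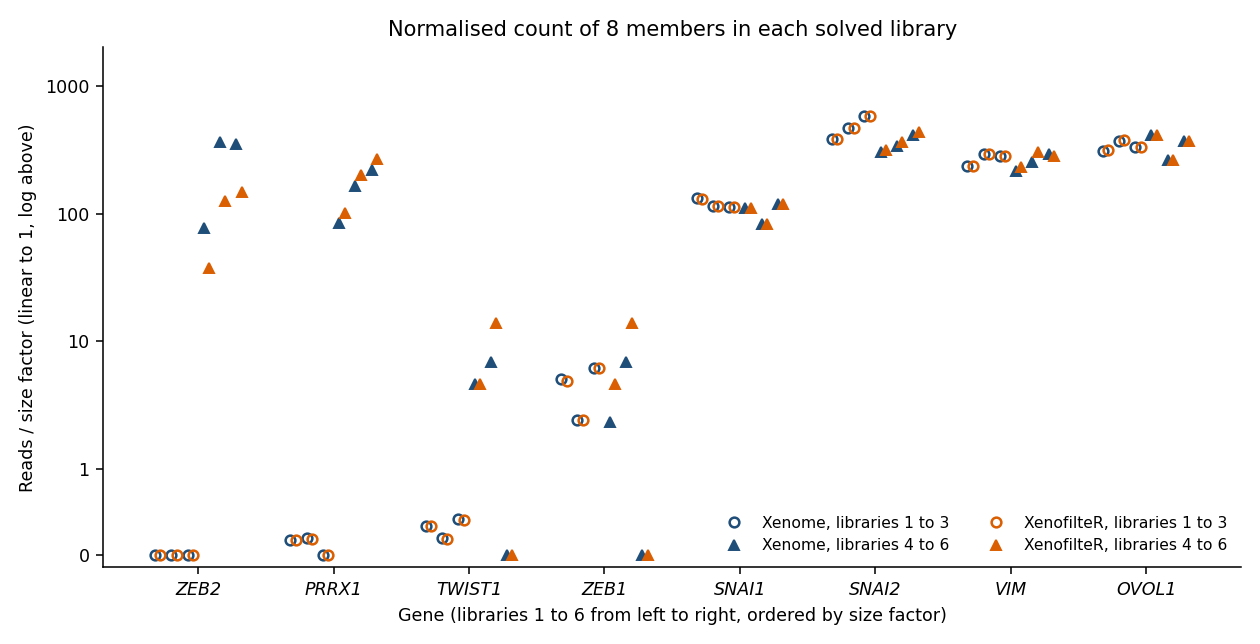
Reads divided by size factor for the 8 solved members, 1 point per library (open circles, libraries 1 to 3; filled triangles, libraries 4 to 6) and pipeline (colour), on an axis that is linear up to 1 and logarithmic above. ZEB2 and PRRX1 lay at or near 0 in libraries 1 to 3 and between 37.5 and 366 in libraries 4 to 6, while the points of SNAI1, SNAI2, VIM and OVOL1 overlapped.

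The share of reads in each of libraries 4 to 6 is given as a description. The size factor of library 4 was 3.92 times that of library 6, and library 4 held 62.7% of the summed size factors of libraries 4 to 6. Of the SNAI1 reads in these 3 libraries, 65.3% lay in library 4 (95% exact binomial interval 53.1% to 76.1%), and of the OVOL1 reads 69.4% did (63.4% to 75.0%). VIM had 57.1% (49.1% to 64.9%) and SNAI2 57.8% (51.1% to 64.4%). For PRRX1 the share was 42.9% (32.1% to 54.1%), and for ZEB2 it was 26.6% (19.1% to 35.3%). The intervals of ZEB2 and PRRX1 lay below the share of the size factors, and that of OVOL1 above it, in both pipelines. Over 891 solved genes with a mean below 40 and at least 20 reads in libraries 4 to 6, the share of library 4 ran from 40% to 87.8% (5th to 95th percentile), a range that holds PRRX1. ZEB2 and PRRX1 have higher means than these genes, and the limit on the mean favours reads in library 4, so no rank is drawn from it. The intervals say nothing of the spread between libraries. They cover counting error only and are too narrow if both mates of a pair were counted as reads.

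**Figure D3:**
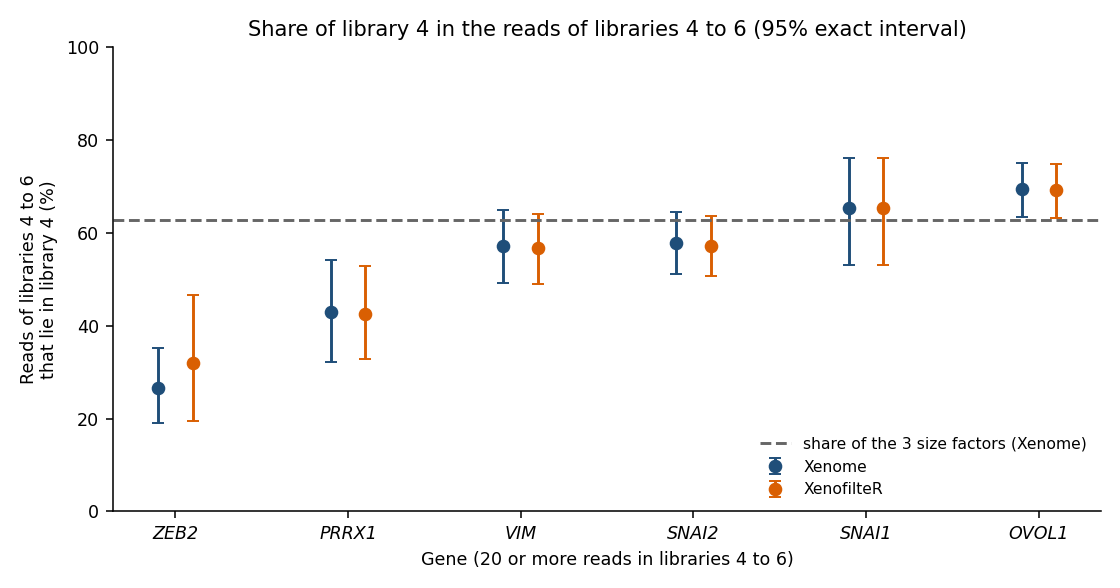
Percent of the reads of libraries 4 to 6 that lay in library 4 for the 6 members with at least 20 such reads, with 95% exact binomial intervals, for Xenome and XenofilteR. The dashed line is the share of library 4 in the 3 size factors (62.7%). With Xenome, ZEB2 (26.6%), PRRX1 (42.9%), VIM (57.1%) and SNAI2 (57.8%) lay below it, SNAI1 (65.3%) and OVOL1 (69.4%) above it, and the 5th to 95th percentile of 891 solved genes with a mean below 40 was 40% to 87.8%.

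In a search of 31674 genes with a Xenome mean of up to 1000, 8 genes had a solution with at most 2 reads over libraries 1 to 3 and at least 20 over libraries 4 to 6, and 5 of these were protein-coding: ZEB2, PRRX1, CDH11, COL1A2 and RUNX1T1. With XenofilteR the same search gave 14 genes, of which 5 were protein-coding: ZEB2, PRRX1, CDH11, COL1A2 and S100A6, and the other 9 were processed pseudogenes. A gene was taken where a single solution of its mean met these limits, even where solutions outside them exist, as for COL1A2 with XenofilteR (703 solutions) and ZEB2 with Xenome (20 solutions), so the limits and not the data set the reads of such genes. This search and its limits were chosen after the values were seen, and it asks for the pattern of ZEB2 and PRRX1, so the likeness of the genes it found is no finding. With Xenome, CDH11, the cadherin of osteoblasts, had 0, 0 and 2 reads and then 20, 15 and 16. COL1A2, the second chain of type I collagen, had 1, 0 and 0 reads and then 12, 19 and 12. Most of the solved osteoblast and mesenchymal markers did not have this pattern with Xenome. COL3A1 had 394, 321 and 270 reads and then 12, 5 and 2 with Xenome, at a mean of 43.9, but its XenofilteR mean was 388.7, whose 5330 solutions leave the reads of each library unknown, so its direction is known for Xenome alone. With Xenome, COL5A1 and COL5A2 had lower normalised counts in each of libraries 4 to 6 than in any of libraries 1 to 3. CDH11 and COL1A2 shared 2.93% and 1.09% of their 31-base words with mouse transcripts. Whether the reads of these genes came from mouse or human cells was not tested.

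Genes with no read at all in libraries 1 to 3 were looked for up to a mean count of 1000. There were 69 with Xenome, and ZEB2 was the 1 gene among them with 20 or more reads. Its Xenome reads are 1 of 20 solutions, taken because it has 0 reads there, so this search was bound to return ZEB2. The next by mean count were HTR5A-AS1 with 0, 11 and 2 reads in libraries 4 to 6, EEF1DP5 with 8, 6 and 3, HNRNPA1P65 with 7, 4 and 2, and EEF1A1P15 with 4, 0 and 3. HTR5A-AS1 is an antisense gene, and whether the counting used the strand is not given in the sources used here. The last 3 are processed pseudogenes, whose reads may be shared with their parent genes. With XenofilteR 86 genes had no read in libraries 1 to 3, of which 4 had 20 or more reads, ZEB2 being the 1 protein-coding gene among them. ZEB2 was selected for its rise, so its place among these genes is no finding with either filter.

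The 3 pipelines gave close levels for GRHL2 and ESRP1 and different levels for some of the mesenchymal factors. The ratio of the Kallisto to the Xenome mean had a median of 1.02 over 15678 protein-coding genes with a Xenome mean of at least 1, and 13.9% of them had a ratio above 2. GRHL2, on chromosome 8 (101492439 to 101669726), had means of 9670 with Xenome, 9766 with XenofilteR and 9697 with Kallisto. ESRP1, on chromosome 8 (94641074 to 94707466), had means of 2924, 2912 and 2944. SNAI1 stood at 112, 112 and 111 and SNAI2 at 413, 423 and 402, so that the means of these 4 stayed close to the Xenome value in each pipeline.

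ZEB2 was the member on which the 2 read filters disagreed most, with a mean of 132 for Xenome and 51.6 for XenofilteR, 2.56 times lower. Only 0.191% of protein-coding genes had a lower ratio of XenofilteR to Xenome. Kallisto gave a ZEB2 mean of 484, 3.67 times the Xenome mean. PRRX1 moved the other way between the filters, with 78.5 for Xenome and 94.8 for XenofilteR, and Kallisto gave 104. ZEB1 was low in both filters, with 3.82 and 5.34, and had a Kallisto mean of 144, 37.7 times the Xenome mean and above the ratio of 98.6% of genes. TWIST1 had 2.09, 3.25 and 1.06, and VIM had 264, 272 and 424. OVOL1 had 343, 344 and 458. Of the 10 members, 2 (ZEB1 and ZEB2) had a Kallisto to Xenome ratio above 2.

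**Figure D4:**
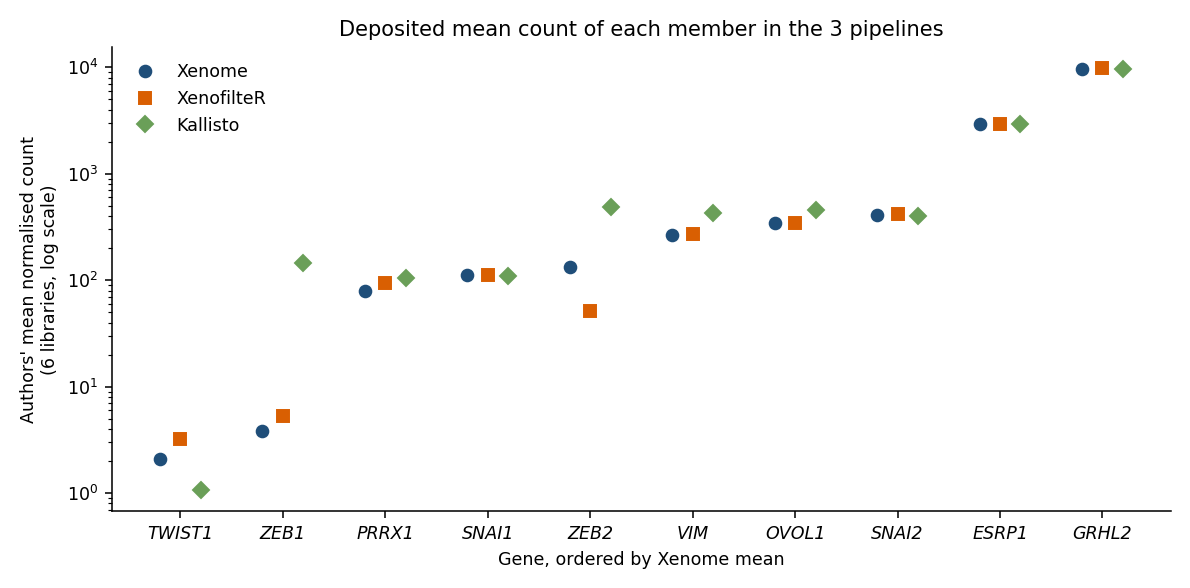
Deposited mean normalised count of each member over the 6 libraries, for Xenome, XenofilteR and Kallisto, on a log axis, ordered by the Xenome mean. The 3 points of GRHL2, ESRP1, SNAI1 and SNAI2 lay close together, whereas those of ZEB1 and ZEB2 were spread from 3.82 to 144 and from 51.6 to 484.

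Per length, GRHL2 and ESRP1 were the most abundant members. The Xenome mean per kilobase of annotated exon was 1598 for GRHL2 and 600 for ESRP1, followed by 126 for SNAI2, 90.2 for OVOL1, 65.7 for SNAI1 and 50.9 for VIM. It was 9.52 for PRRX1, 5.05 for ZEB2, 1.05 for TWIST1 and 0.442 for ZEB1. The mean joins libraries that differ for ZEB2 and PRRX1, and their place in this order holds for the mean only. With Kallisto, ZEB2 (18.5) and ZEB1 (16.7) passed PRRX1 (12.6). The length joins the exons of all annotated transcripts, for ZEB2 26151 bases against 9265 in its canonical transcript. The order of members with near values can change with the length used.

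The other genes of the pathway were taken from lists that include no member. Genes named from them beyond the 3 most abundant of each list were chosen after their values were seen. All 25 other epithelial genes had a Xenome mean of at least 1, with a median of 4870 and a median Kallisto to Xenome ratio of 1.00. EHF (26390), CDH1, which encodes E-cadherin (25672), and TJP1, which encodes a tight junction protein (18580), led them. OCLN was the 1 gene of the list with a ratio above 2 (2.15). Of the 23 other EMT transcription factors and mesenchymal effectors, 21 had a mean of at least 1, with a median of 23.6. FN1 (fibronectin), at 40055, was followed by TCF3 (3803) and MSN (3383). In 6 of the 21 the Kallisto mean was more than 2 times the Xenome mean, against 2 of 10 members, and MMP14 had the steepest ratio (15.5 with Xenome and 2567 with Kallisto). CDH2, which encodes N-cadherin, had 1, 1 and 1 reads in libraries 1 to 3 and 4, 1 and 1 in libraries 4 to 6 with Xenome. Its normalised counts were 0.169, 0.188 and 0.206 and then 9.38, 6.91 and 9.18, and the latter rest on 6 reads. With XenofilteR it had 2, 1 and 0 reads in libraries 4 to 6. The paralogues TWIST2 and PRRX2 had means of 8.30 and 0.759. Of the 19 osteoblast and mesenchymal markers with a mean of at least 1, 2 had a ratio above 2, and COL5A2 had a mean of 277. This limit on the Xenome mean left out DCN (0.966 with Xenome and 64.6 with Kallisto) and PDGFRA (0.190 and 14.9), whose ratios of 66.8 and 78.1 were the highest of the 26 markers.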

How the data were processed

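Members, lists and tests were chosen with earlier results of these data known. Stranded mRNA libraries were sequenced as 50-base pairs. The authors separated the species in 3 ways. Reads were classified by Xenome before alignment, or filtered by XenofilteR after alignment to both genomes, with HISAT2 as the aligner and featureCounts as the counter, or assigned by Kallisto to a joint human and mouse transcriptome. DESeq2 followed (versions not given in the sources used here; GRCh38, GRCm38, kallisto and DESeq2 are named in the submitters' processing notes). The deposited mean normalised count of each pipeline, the authors' average over 6 libraries of counts divided by size factors, was used. The deposited table's other columns hold the authors' comparison of the groups (log2 fold change, standard error, statistic and p-values) and were not used. Of 41734 rows, 21 that list a gene again were dropped.

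The value of 1 read of each library was found from the lowest means, which have 15 significant digits, and means were solved into whole reads by lattice reduction and enumeration (python 3.11.15, numpy 2.4.6, numba 0.67.0, sympy 1.14.0). Below a mean of 40, each of 24465 Xenome genes and 24288 XenofilteR genes had 1 solution. Up to a mean of 450, members with several solutions took the nearest pair of Xenome and XenofilteR solutions, if its distance (largest difference over the square root of the reads plus 1) was at most 1.5 and the next pair lay at least 1.5 times farther. On simulated reads, 100% of 1000 low means were recovered, and 39 of 39 matched means from 100 to 200, 39 of 39 from 200 to 300 and 26 of 27 from 300 to 430 were right. For the matched means, the second pipeline was simulated as a near copy of the first. Intervals are exact binomial (Clopper-Pearson, scipy 1.17.1), and floors use 3 reads. All such floors are too low if both mates of a pair were counted as reads.

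The test between groups planned on counts per library (a quasi-likelihood count test) was not run, since the table names no library. Genes named are the members, the 3 genes of each list with the highest Xenome mean and the 5 highest genes without reads in libraries 1 to 3, beside genes of the lists and of the search that were chosen after their values were seen. Word counts used GENCODE releases 44 and M21. Alternatives were the pipeline, another scaling, word lengths of 25 and 50, no filter on low means and leaving out each library. KLK2 was not analysed here.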

Additional observations from a re-analysis of the deposited data

How the results depend on the processing

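No paired analysis was possible because the table names no library. A value counts as moved where it changed by more than 1.5 times. The mean count of ZEB2 moved from 132 with Xenome to 51.6 with XenofilteR and 484 with Kallisto, that of ZEB1 to 144 with Kallisto, that of VIM to 424 with Kallisto, and that of TWIST1 to 3.25 with XenofilteR and 1.06 with Kallisto. With XenofilteR, the reads in libraries 4 to 6 moved to 50 for ZEB2 and to 4 for ZEB1. The cause was not tested. The number of members without reads in libraries 1 to 3 was 1 with both filters. This likeness was set in advance, since the Xenome solution of ZEB2 was taken because of the XenofilteR solution. Words of 25 bases raised the shared percent to 12.8 for TWIST1, 3.58 for VIM, 2.13 for SNAI2, 2.07 for OVOL1 and 1.55 for SNAI1, since shorter words match more often. Words of 50 bases lowered it to 3.01 for ZEB1, 2.91 for PRRX1, 2.80 for ESRP1, 2.47 for GRHL2, 2.36 for TWIST1, 0.213 for SNAI2, 0.0765 for VIM, and 0 for SNAI1 and OVOL1. Scaling by the reads of genes with a mean below 10 moved none of 42 normalised counts of members. Leaving out 1 library gave median normalised counts from 0 to 77.4 for ZEB2 and from 0.188 to 84.4 for PRRX1, since their median lies between libraries 1 to 3 and 4 to 6. For ZEB1 it gave 2.45 to 5.06. Without the filter on low means, the median mean count fell to 4.40 for the osteoblast and mesenchymal markers, 15.5 for the other EMT genes and 517 for all protein-coding genes. Library 6, with about 4.61 M human reads, sets the precision, since 1 of its reads is worth a normalised count of 9.18.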

Other observations

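Some genes kept different numbers of reads under the 2 filters in libraries 4 to 6. The totals were close, though not equal, for COL5A1 (82 and 80 reads), COL5A2 (133 and 134) and LOX (112 and 113). In library 6, COL5A1 had 16 reads with Xenome and 13 with XenofilteR. The reads of these 3 genes were chosen among several solutions as the pair most alike between the filters, which favours like values. MMP14, a membrane-bound matrix metalloproteinase, had 104, 52 and 60 reads in libraries 1 to 3 with both filters, and 10, 3 and 1 reads in libraries 4 to 6 with Xenome against 38, 27 and 15 with XenofilteR. COL1A2 had 43 reads in libraries 4 to 6 with Xenome and 78, 109 and 70 in these libraries with XenofilteR. The XenofilteR reads of COL1A2 are the 1 solution with at most 2 reads in libraries 1 to 3 among 703 solutions of its mean, and that limit was set, not measured. CDH11 went the other way, as ZEB2 did, with 51 reads with Xenome and 22 with XenofilteR. With XenofilteR, S100A6, which encodes a calcium-binding protein, had 0, 1 and 0 reads and then 25, 18 and 12. These genes were chosen after their values were seen.

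LOX, which encodes the collagen cross-linking enzyme lysyl oxidase, had 45 reads in library 5 against 52 in library 4, which is deeper, with Xenome. Its normalised count in library 5 was 311, against 92.4 to 143 in libraries 1 to 3. In libraries 4 and 6 it was 121.9 and 137.8, within that range, so the high value was in library 5 alone. SPARC, the bone matrix protein osteonectin, had normalised counts of 13.8, 18.3 and 21.4 in libraries 1 to 3 and of 65.6, 138 and 174.5 in libraries 4 to 6 with Xenome. Its mean was 71.96 with Xenome and 142.2 with XenofilteR, and the 30 solutions of the latter leave the XenofilteR reads of each library unknown. COL5A1 and COL5A2, chains of type V collagen, were lower in each of libraries 4 to 6 than in any of libraries 1 to 3, with COL5A2 at 340.0, 366 and 345 and then at 187.5, 186.5 and 239. No library has a label, and no test was made.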
